A study of Oryctolagus cuniculus with 17 samples.

Results

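Hyperoxia was compared with normoxia on postnatal day 3 in 6 of the 17 lung samples of the series, 3 from pups in hyperoxia (HT3) and 3 from pups in normoxia (NT3). The 6 samples were taken by their labels, and all tested loci were described, including those with small changes. All 6 pups were New Zealand White rabbits delivered preterm by C-section at day 28 of gestation and fed a milk replacer. HT3 pups breathed 95% oxygen and NT3 pups 21% oxygen for 3 days, in incubators. RNA came from homogenate of the whole right lung, as the labels state, and mRNA was sequenced from stranded libraries. The other 11 samples are pups sampled on day 5 or day 7 in the same gases, and served to estimate the spread between samples in the shared fit and to follow the day 3 loci in other animals. Fitted alone, the 6 day 3 samples gave 253 called loci in place of 126. Every pup was preterm, so the comparison contrasts the gases within preterm lungs and holds no term-born group. The labels call the samples replicates without saying from how many litters they came, and p-values measure the spread between these samples.

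Preterm rabbits of this age are in the saccular phase of lung development, when thin-walled sacs are built and their capillaries form, and prolonged high oxygen is used in them to model bronchopulmonary dysplasia. Oxygen radicals oxidise the sensor KEAP1 and thereby free the transcription factor NRF2, which switches on genes for glutathione, thioredoxin and quinone metabolism. DNA damage stabilises p53, which induces brakes on the cell cycle and death receptors, while amino acid shortage or misfolded protein raises ATF4, an activator of amino acid synthesis and transport. Endothelial cells depend on VEGF and on angiopoietin signalling through the receptors TIE1 and TEK, and are known to be sensitive to oxygen.

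The 6 samples held between 15491976 and 18111086 counts over 13313 loci, with TMM factors between 0.951 and 0.992. CPM are counts scaled to a common library size (edgeR's CPM with TMM factors). Lung markers were abundant in all samples: the surfactant protein gene SFTPC measured 11049, 10588 and 9301 CPM in HT3 and 11072, 8454 and 8891 CPM in NT3, and SFTPA1 measured 6451, 8424 and 8747 CPM in HT3 and 3256, 3547 and 4349 CPM in NT3. The markers of alveolar type 2 cells summed to between 28370 and 32026 CPM in HT3 and between 20177 and 23473 CPM in NT3. Those of alveolar type 1 cells summed to between 8947 and 11515 CPM in HT3 and between 12044 and 13180 CPM in NT3. Libraries stood apart in muscle and chemokine genes. HT3 replicate 2 held skeletal muscle genes, for which the summed level was 773 CPM in that sample, 173 and 227 CPM in the other HT3 samples and between 204 and 244 CPM in NT3. HT3 replicate 3 held some of these genes at a lower level, such as the muscle actin ACTA1 at 18.7 CPM against no more than 2.86 CPM in NT3. In HT3 replicate 3, chemokine genes summed to 1083 CPM against 583 and 427 CPM in the other HT3 samples and 386 to 505 CPM in NT3. In whole-lung RNA, fewer cells of a type and less RNA per cell cannot be told apart, which applies to every result given here.

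The groups lay apart on the first principal component of the log2 CPM of all tested loci, which took 35.5% of the variance. The scores were 8.17, 40.6 and 20.9 in HT3 and -27.5, -20.7 and -21.5 in NT3, a mean difference of 46.4. The exact 2-sided permutation test gave p = 0.1, the smallest that 3 against 3 samples allow. HT3 replicates were spread more widely along this axis than NT3 replicates.

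Across 12628 tested loci, 126 (0.998%) passed an adjusted p of 0.05 in edgeR's quasi-likelihood test with Benjamini-Hochberg adjustment, and these are termed called. Of these, 65 (0.515%) were upregulated in HT3 and 61 (0.483%) downregulated. Most changes were small. 78 of the called loci had a log2 fold change (log2FC, HT3 over NT3) between -1 and 1, 32 lay between 1 and 2 in size, and 16 exceeded 2. The median log2FC was 0.85 among the upregulated and -0.76 among the downregulated loci, against 0.00 over all tested loci. In all 126 the 3 HT3 samples lay entirely above or below the 3 NT3 samples, as they did for 26.5% of all tested loci. Without adjustment, 1948 loci (15.4%) had p under 0.05, 956 of them higher and 992 lower in HT3. At the thresholds of the study's methods (adjusted p under 0.01 and log2FC beyond 2), 6 loci remained (0.0475%), which edgeR gave as upregulated: ANGPT2, KCNJ2, the locus shared by ISG20 and AEN, EDA2R, CDKN1A and CCL7. DESeq2 put 18 loci past these thresholds, 14 up and 4 down, and edgeR only 1 without NT3 replicate 1, 2 without HT3 replicate 1, NT3 replicate 2 or NT3 replicate 3, and 3 without HT3 replicate 3.

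With the replicate number as a block, 56 of the 126 loci stayed called (0.443% of those tested), 28 in each direction, and the same number, 6, passed the stricter thresholds. The count of 126 rested on all 6 samples. It was 42 without HT3 replicate 1, 29 without HT3 replicate 2, 101 without HT3 replicate 3, 26 without NT3 replicate 1, 26 without NT3 replicate 2 and 29 without NT3 replicate 3. Each called locus kept its sign in all 6 of these fits, and 21 were called in every one and also with the block. The upregulated ones among the 21 were ANGPT2, KCNJ2, ISG20/AEN, EDA2R, CDKN1A, CCL7, ADM, NFE2L2, PXDC1 and RRAGD. The downregulated ones were ETS1, EMILIN1/KHK/CAD/ATRAID, PCDH12, RTN4RL1, TIE1, CYP26B1, LTK, PLEKHA6, LFNG, ARHGAP18 and SOX13. The other 105 lost the call without at least 1 sample. DESeq2 called all 126 loci among its 480.

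**Figure D1:**
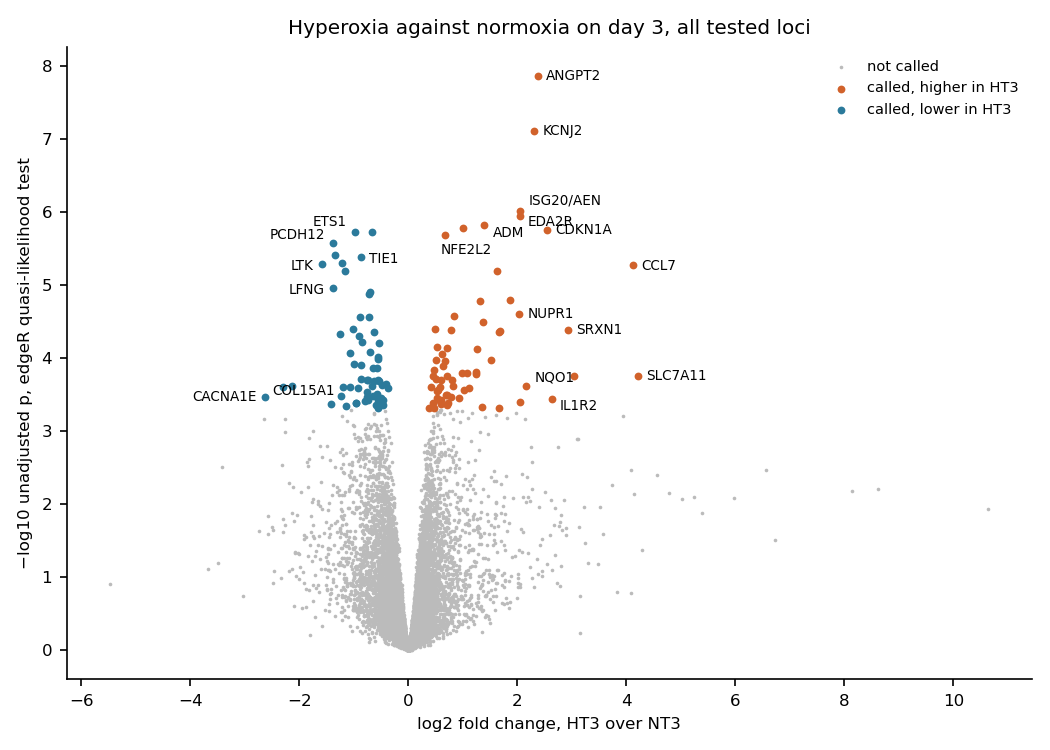
Volcano plot of the 12628 tested loci, with the log2 fold change of HT3 over NT3 on the x axis and −log10 of the unadjusted p of edgeR's quasi-likelihood test on the y axis. Orange and blue points are the 65 loci called higher and the 61 called lower in HT3; the 6 loci past the stricter thresholds are all on the right.

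Genes that p53 is known to induce were among the clearest rises, and 3 of the 6 loci past the stricter thresholds belong to them. In what follows, values after ± are standard errors of the log2FC (3 samples a group, but 2 for hyperoxia on day 5), adjusted p-values come from edgeR's quasi-likelihood test, and positions are those of the count table (build OryCun2.0). SFTPC, PHLDA3, XPC, FTL, GCLC, CXCL8, C6, S100A9, KDR, CDH5, VWF, PECAM1, RRAGD, GGT1 and CENPA lie outside the naming rule, and were chosen after their values were seen. CDKN1A, which encodes the cyclin-dependent kinase inhibitor p21, measured 117, 108 and 175 CPM in HT3 and 18.2, 25.1 and 25.5 CPM in NT3. Its log2FC was 2.54 ± 0.33, adjusted p = 0.00259, a 5.81-fold difference (chromosome 12, 26615148 to 26621177). EDA2R, a death receptor of the TNF receptor family (chromosome X, 45563827 to 45581103), measured 19.6, 21.2 and 26.5 CPM in HT3 and 4.35, 5.52 and 6.48 CPM in NT3. No HT3 sample came near the NT3 range, and the log2FC was 2.04 ± 0.26, adjusted p = 0.00259. The locus shared by ISG20 and AEN measured 40.7, 27.7 and 36.0 CPM in HT3 and 8.07, 9.43 and 7.68 CPM in NT3, with a log2FC of 2.05 ± 0.26, adjusted p = 0.00259. AEN is a nuclease induced by p53 and ISG20 an exonuclease induced by interferon, and their counts cannot be separated. SESN2, a stress-induced inhibitor of mTORC1, measured 21.6, 19.2 and 28.7 CPM in HT3 and 8.07, 8.31 and 10.8 CPM in NT3. Its log2FC was 1.35 ± 0.30, adjusted p = 0.0479, it lost the call with the block (adjusted p = 0.0733), and no fit with a sample removed called it.

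In total 4 of 30 tested p53 targets were upregulated (0.515% of all loci were) and none downregulated, with a median log2FC of 0.35. 3 of the 4 are genes that the study picked from these samples, so they are not independent evidence of the list's direction. 13 of the 30 were higher in HT3 without overlap of the groups, against 12.9% of all loci, and 26 had a log2FC above 0. Among members that did not pass, PHLDA3, an inhibitor of AKT, had a log2FC of 1.04 ± 0.31, adjusted p = 0.12502, and the DNA repair gene XPC one of 0.83 ± 0.23, adjusted p = 0.0972. MDM2, the ubiquitin ligase that degrades p53, measured 225, 178 and 223 CPM in HT3 and 136, 117 and 125 CPM in NT3, with a log2FC of 0.73 ± 0.27, adjusted p = 0.206. A second locus that carries the name MDM2 was listed at no more than 1.10 CPM in any day 3 sample. The list summed to between 1651 and 1819 CPM in HT3 samples, above the 1209 to 1293 CPM of NT3 samples.

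**Figure D2:**
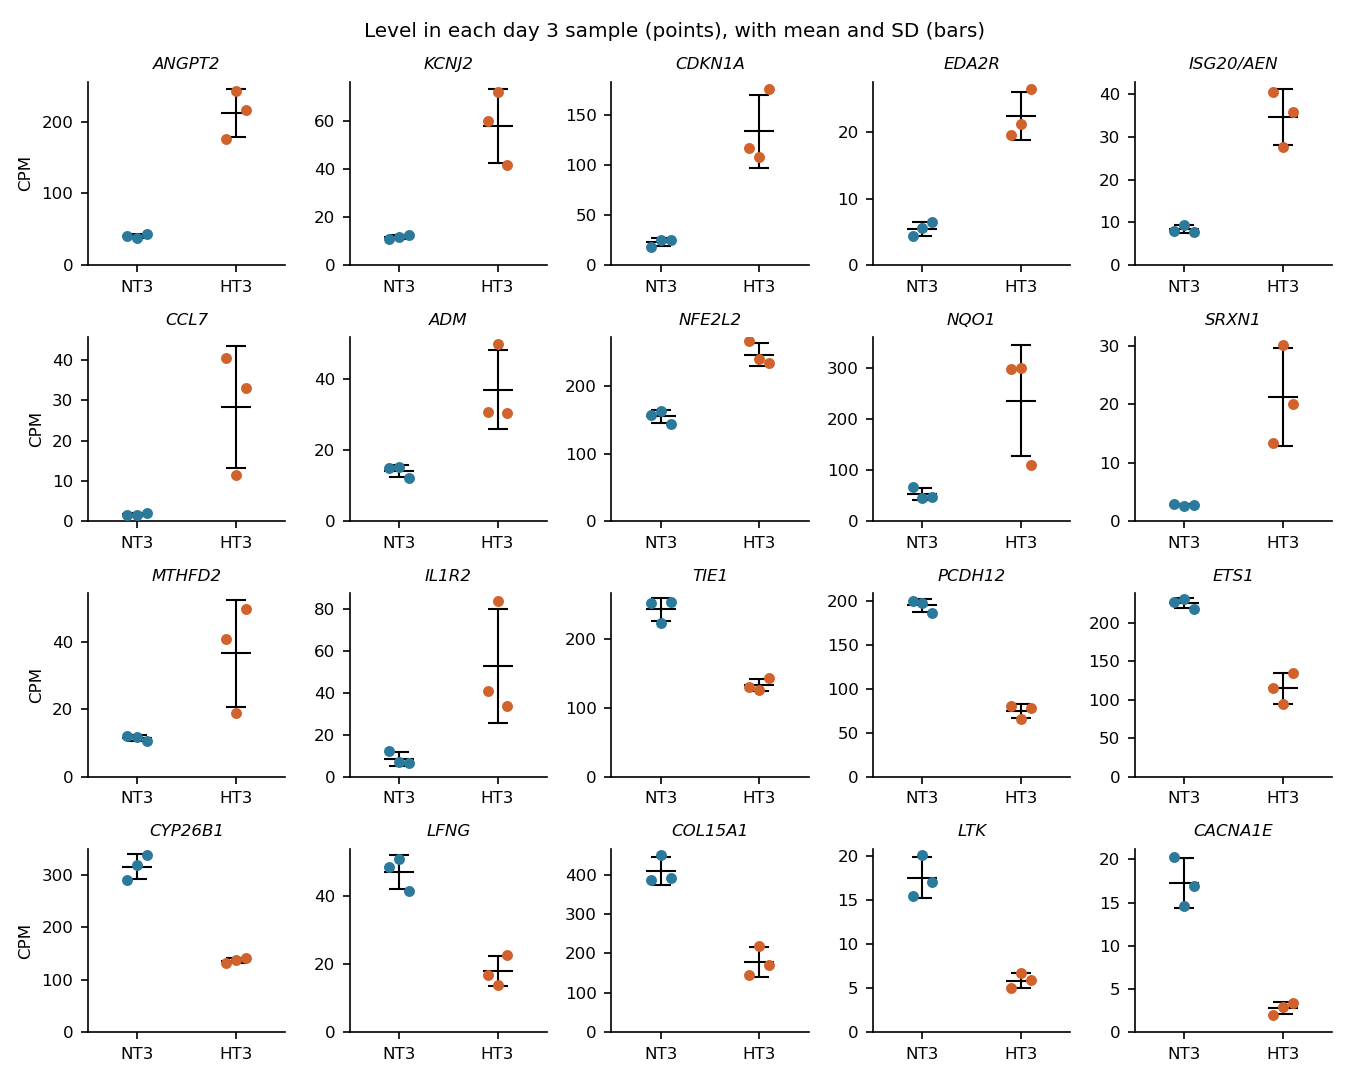
Level of 20 called loci in CPM (y axis) in each NT3 and HT3 sample (points), with the mean and SD of 3 samples as black bars. HT3 and NT3 do not overlap at any of these loci, and the spread within HT3 is wide for CCL7, NQO1, SRXN1 and IL1R2.

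NFE2L2, the gene of NRF2 itself, measured 267, 240.2 and 234 CPM in HT3 and 158, 164 and 145 CPM in NT3 (chromosome 7, 116895286 to 117079121). The rise was modest and uniform, with a log2FC of 0.67 ± 0.09, adjusted p = 0.00259. 5 of 28 tested loci of the NRF2 target list were upregulated, against 0.515% of all loci, and none downregulated, and the list's median was 0.45. SLC7A11, the cystine importer that feeds glutathione synthesis, measured 2.23, 6.57 and 4.91 CPM in HT3 and 0, 0.502 and 0.189 CPM in NT3. It was nearly silent in NT3, with no count in 1 sample, and its log2FC of 4.22 ± 0.85, adjusted p = 0.0349 therefore depends on few counts. SRXN1, which repairs oxidised peroxiredoxins, measured 13.4, 30.1 and 20.1 CPM in HT3 and 2.98, 2.57 and 2.77 CPM in NT3, a 7.64-fold difference (log2FC 2.93 ± 0.51, adjusted p = 0.0159). NQO1, a quinone reductase, measured 298, 302 and 110.2 CPM in HT3 and 65.9, 45.9 and 46.6 CPM in NT3, so that 1 HT3 sample lay far below the other two. Its log2FC was 2.16 ± 0.45, adjusted p = 0.0371.

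GCLM, the regulatory subunit of the enzyme that limits glutathione synthesis, measured 21.3, 28.2 and 23.1 CPM in HT3 and 8.75, 8.42 and 8.30 CPM in NT3, with a log2FC of 1.51 ± 0.29, adjusted p = 0.0272. TXNRD1, thioredoxin reductase, measured 168, 176 and 158 CPM in HT3 and 83.9, 68.5 and 83.8 CPM in NT3, with a log2FC of 1.09 ± 0.22, adjusted p = 0.0343. With the block, SRXN1 and SLC7A11 stayed called, whereas NQO1 (adjusted p = 0.0641), GCLM (adjusted p = 0.0583) and TXNRD1 (adjusted p = 0.0641) did not. None of the 5 stayed called under removal of every sample in turn. SRXN1, SLC7A11 and NQO1 are among the genes that the study picked from these samples. The ferritin light chain gene FTL measured 1756, 1501 and 1856 CPM in HT3 and 685, 908 and 815 CPM in NT3 but did not pass (log2FC 1.09 ± 0.34, adjusted p = 0.144), nor did GCLC, the catalytic partner of GCLM (log2FC 0.91 ± 0.23, adjusted p = 0.0771). 15 of the 28 loci were higher in HT3 without overlap, against 12.9% of all loci. In the list of other antioxidant enzymes and metallothioneins none of 14 loci was called, and SOD1, cytosolic superoxide dismutase, had the lowest p with a log2FC of 0.44 ± 0.12, adjusted p = 0.0892.

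5 of 24 targets of ATF4 were upregulated and none was downregulated, with a median of 0.57, where 0.515% of all loci were upregulated. 13 members were higher in HT3 without overlap, against 12.9% of all loci. MTHFD2, a mitochondrial enzyme of folate metabolism, measured 41.0, 19.1 and 50.0 CPM in HT3 and 12.2, 11.9 and 10.6 CPM in NT3, with a log2FC of 1.66 ± 0.29, adjusted p = 0.0159. NUPR1, a small nuclear stress protein, measured 109, 105 and 63.4 CPM in HT3 and 22.3, 26.0 and 19.6 CPM in NT3. Its log2FC was 2.03 ± 0.34, adjusted p = 0.0127, a 4.09-fold difference. PSAT1, an enzyme of serine synthesis, had a log2FC of 1.24 ± 0.25, adjusted p = 0.0349, and CHAC1, which breaks down glutathione, one of 2.05 ± 0.45, adjusted p = 0.0449. SESN2, given above with the p53 targets, is the fifth. The calls of PSAT1 and CHAC1 were lost with the block, at adjusted p = 0.0694 and adjusted p = 0.0686. 2 of the 5 were picked by the study from these samples.

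Among 18 cytosolic aminoacyl-tRNA synthetases, which charge transfer RNAs with their amino acids, TARS1 and SARS1 were upregulated (0.515% of all loci were), with a median of 0.25 for the list. TARS1 measured 155, 155 and 182 CPM in HT3 and 105, 104 and 119.8 CPM in NT3, and SARS1 measured 139, 101 and 119 CPM in HT3 and 77.5, 76.3 and 82.7 CPM in NT3. These were changes of 1.496-fold (log2FC 0.58 ± 0.12, adjusted p = 0.0371) and 1.52-fold (log2FC 0.60 ± 0.13, adjusted p = 0.0444). Both were lost with the block (adjusted p = 0.0583 and adjusted p = 0.0695). In the list of 42 ribosome biogenesis loci none was called, 37 were above 0 and the median was 0.25.

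CCL7, a chemokine that attracts monocytes, had the second largest log2FC among the called loci. It measured 40.7, 11.4 and 33.2 CPM in HT3 and 1.49, 1.39 and 2.01 CPM in NT3, and every HT3 sample was above every NT3 sample although the HT3 samples differed widely. The log2FC was 4.12 ± 0.60, adjusted p = 0.00422 (a 17.4-fold difference; chromosome 19, 23731287 to 23733738). It was the only called locus of 24 chemokine and chemokine receptor loci, and the study picked it from these samples. CCL2, a related monocyte chemokine, measured 18.7, 9.21 and 137 CPM in HT3 and 1.12, 2.23 and 9.12 CPM in NT3. Its log2FC of 3.73 ± 1.14, adjusted p = 0.138 did not pass, and it was 1.75 without HT3 replicate 3. The neutrophil chemokine CXCL8 measured 27.7, 48.2 and 307 CPM in HT3 and 9.56, 12.3 and 31.0 CPM in NT3, with the groups overlapping and a log2FC of 2.86 ± 0.95, adjusted p = 0.164. The median of the chemokine list was 0.27, and it was -0.10 without HT3 replicate 3.

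3 of 19 loci of the interleukin 1 and 6 families were upregulated, against 0.515% of all loci. Among them, IL1R2 was picked by the study from these samples. The median was 0.76, and 0.43 without HT3 replicate 3. IL1R2, the decoy receptor that captures interleukin 1, measured 40.8, 83.7 and 33.8 CPM in HT3 and 12.4, 6.86 and 6.35 CPM in NT3, with a log2FC of 2.63 ± 0.57, adjusted p = 0.0444. IL1RAP, the shared chain of interleukin 1 receptors, measured 34.0, 38 and 42.2 CPM in HT3 and 13.9, 15.6 and 14.6 CPM in NT3, with a log2FC of 1.37 ± 0.23, adjusted p = 0.0144. IL6ST, the signalling chain gp130 of interleukin 6 receptors, measured 666, 925 and 653 CPM in HT3 and 420.4, 480.2 and 468 CPM in NT3, with a log2FC of 0.71 ± 0.15, adjusted p = 0.043. IL1R2 and IL6ST lost the call with the block (adjusted p = 0.0821 and adjusted p = 0.0592). None of 27 loci of NF-kB feedback and acute inflammation was called, although 22 were above 0 with a median of 0.49, or 0.30 without HT3 replicate 3. VCAM1, an endothelial adhesion molecule for leukocytes, was nearest: it measured 253, 280.0 and 295 CPM in HT3 and 144, 133 and 153 CPM in NT3, with a log2FC of 0.95 ± 0.22, adjusted p = 0.0595. C6, a component of the complement attack complex, measured 63.3, 56.96 and 56.9 CPM in HT3 and 16.5, 14 and 18.1 CPM in NT3, with a log2FC of 1.87 ± 0.30, adjusted p = 0.00908.

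Neutrophil markers were read beside these inflammatory genes. 12 of 13 tested markers were above 0, with a median log2FC of 1.34, and 8 were higher in HT3 without overlap, against 12.9% of all loci, but none was called. Their summed level was 1687, 2172 and 1424 CPM in HT3 and 952, 384 and 472 CPM in NT3. S100A9, an abundant neutrophil calcium-binding protein, measured 594, 750.0 and 552 CPM in HT3 and 335, 122 and 162 CPM in NT3 (log2FC 1.62 ± 0.54, adjusted p = 0.168), and the enzyme MPO was near 0 in all samples, at no more than 1.10 CPM. Whether neutrophil RNA has a part in the inflammatory calls was not tested. Of 19 macrophage and monocyte markers none was called. Their median was 0.37, and 0.00 without HT3 replicate 3.

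The vascular genes split in direction. ANGPT2, the ligand that antagonises TEK and loosens vessels, gave the lowest p of all loci. On a scaffold that is not placed on a chromosome, it measured 176, 243 and 216 CPM in HT3 and 40.3, 38.1 and 43.5 CPM in NT3. The log2FC was 2.38 ± 0.21, adjusted p = 0.00017, a 5.21-fold difference, and the 3 NT3 samples were nearly equal. PGF, placental growth factor and a ligand of FLT1, measured 23.3, 33.6 and 15.0 CPM in HT3 and 8.19, 7.31 and 7.23 CPM in NT3, with a log2FC of 1.66 ± 0.37, adjusted p = 0.0487 and a lost call with the block (adjusted p = 0.0851). ADM, the vasodilator peptide adrenomedullin, measured 30.6, 49.9 and 30.5 CPM in HT3 and 14.8, 15.2 and 12.1 CPM in NT3 (chromosome 1, 152086547 to 152094179), with a log2FC of 1.40 ± 0.18, adjusted p = 0.00259. ADM was the only called member of 23 HIF targets, the list of hypoxia-inducible genes, whose median was 0.04 (0.04 to 0.11 with 1 sample left out). VEGFA, the main angiogenic ligand, measured 1413, 1292 and 1082 CPM in HT3 and 1621, 1936 and 1804 CPM in NT3. The groups did not overlap, yet its log2FC of -0.50 ± 0.21, adjusted p = 0.275 did not pass.

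TIE1, the orphan receptor that partners TEK, measured 129.6, 126 and 143 CPM in HT3 and 253, 224 and 253 CPM in NT3 (chromosome 13, 123339073 to 123348145). It was downregulated 1.83-fold, with a log2FC of -0.87 ± 0.12, adjusted p = 0.00401. ETS1, a transcription factor of endothelial and other cells, measured 115, 95.0 and 135 CPM in HT3 and 227, 231 and 218 CPM in NT3, with a log2FC of -0.97 ± 0.13, adjusted p = 0.00259. PCDH12, a protocadherin of endothelial junctions, measured 80.5, 66.2 and 78.8 CPM in HT3 and 201, 198 and 187 CPM in NT3. This was a 2.60-fold fall with a log2FC of -1.38 ± 0.19, adjusted p = 0.00302, and both groups were tight. Among 28 angiogenic ligands and receptors, ANGPT2 and PGF were upregulated and TIE1 downregulated, where 0.998% of all loci were called. ANGPT2 is among the genes that the study picked from these samples. The median of the list was -0.03. Leaving out HT3 replicate 2 gave -0.15, and leaving out NT3 replicate 3 gave 0.05. KDR, the main VEGF receptor, measured 459, 548 and 383 CPM in HT3 and 849.7, 829.9 and 658 CPM in NT3, without passing (log2FC -0.75 ± 0.25, adjusted p = 0.17).

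TIE1 was also the only called one of 11 endothelial identity loci. 7 of the 11 were lower in HT3 without overlap, against 13.6% of all loci, and the median was -0.44. CDH5, the cadherin of endothelial junctions, measured 406, 512 and 422 CPM in HT3 and 678, 577 and 627 CPM in NT3 (log2FC -0.49 ± 0.13, adjusted p = 0.0941). VWF, von Willebrand factor, went the other way: it measured 220.0, 345 and 331 CPM in HT3 and 152, 128 and 138 CPM in NT3 and had a log2FC of 1.10 ± 0.26, adjusted p = 0.056. PECAM1, an adhesion molecule of all endothelium, measured 661, 911 and 667 CPM in HT3 and 676, 498 and 619.5 CPM in NT3, with overlapping groups. None of 17 markers of lung capillary endothelium was called, 5 were lower without overlap (13.6% of all loci were) and the median was -0.47, or -0.22 without NT3 replicate 3. The summed level of the endothelial identity list was 2400.4, 2815 and 2400.0 CPM in HT3 and 3017, 2553 and 2749.5 CPM in NT3, and these overlap.

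KCNJ2, an inwardly rectifying potassium channel that sets the resting potential of muscle and endothelium, measured 60.0, 72.1 and 41.7 CPM in HT3 and 10.7, 11.8 and 12.6 CPM in NT3 (chromosome 19, 53916674 to 53923901). Its log2FC was 2.31 ± 0.24, adjusted p = 0.000481, a 4.94-fold difference. RRAGD, a GTPase that links lysosomal amino acids to mTORC1, measured 16.2, 13.9 and 14.3 CPM in HT3 and 5.15, 5.13 and 4.03 CPM in NT3, with a log2FC of 1.63 ± 0.24, adjusted p = 0.00451. GGT1, which splits extracellular glutathione, measured 4.40, 8.23 and 4.78 CPM in HT3 and 2.17, 1.56 and 1.70 CPM in NT3, with a log2FC of 1.68 ± 0.29, adjusted p = 0.0159. All 3 remained called with the block.

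The 12 largest falls included the following genes. CYP26B1, which degrades retinoic acid, measured 131, 138 and 141 CPM in HT3 and 290.4, 318 and 337 CPM in NT3 (chromosome 2, 114277921 to 114294777). It was downregulated 2.31-fold with a log2FC of -1.21 ± 0.17, adjusted p = 0.00422. LFNG, a glycosyltransferase that tunes Notch receptors, measured 17.01, 14.1 and 22.9 CPM in HT3 and 48.7, 51.0 and 41.4 CPM in NT3, with a log2FC of -1.39 ± 0.21, adjusted p = 0.00727. COL15A1, a collagen of basement membranes, measured 146, 219 and 169.9 CPM in HT3 and 386, 449.9 and 390.0 CPM in NT3. Its log2FC was -1.19 ± 0.25, adjusted p = 0.0371, and the call was lost with the block (adjusted p = 0.0596). It was the only called locus of 41 in the extracellular matrix list, where 35 were below 0, the median was -0.29 and 14 were lower without overlap, against 13.6% of all loci. The summed level of that list was 38779 to 40051 CPM in HT3 and 46331 to 53309.9 CPM in NT3.

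CACNA1E, a voltage-gated calcium channel, had the largest fall among called loci averaging 1 log2 CPM or more: it measured 2.04, 2.95 and 3.36 CPM in HT3 and 20.3, 14.6 and 16.9 CPM in NT3, 6.18-fold lower (log2FC -2.63 ± 0.57, adjusted p = 0.0436). The call was lost with the block (adjusted p = 0.0821) and after removal of any of the 6 samples. LTK, a receptor tyrosine kinase, measured 4.99, 6.69 and 5.88 CPM in HT3 and 15.5, 20.0 and 17.05 CPM in NT3, with a log2FC of -1.58 ± 0.23, adjusted p = 0.00422. RTN4RL1, a receptor related to the Nogo receptor, had a log2FC of -1.34 ± 0.19, adjusted p = 0.004, and PLEKHA6, a junction protein, one of -1.16 ± 0.17, adjusted p = 0.00451. FAM124B (log2FC -1.41 ± 0.31, adjusted p = 0.0456), SYT14, a synaptotagmin (log2FC -1.23 ± 0.27, adjusted p = 0.0435), and SSUH2 (log2FC -1.26 ± 0.22, adjusted p = 0.0165) also fell. FAM124B and SYT14 lost the call with the block (adjusted p = 0.0821 and adjusted p = 0.0821). ACTC1, the actin of heart muscle, measured 1.31, 0.859 and 2.00 CPM in HT3 and 6.58, 8.70 and 3.02 CPM in NT3, with a log2FC of -2.13 ± 0.44, adjusted p = 0.0371 that lost the call with the block (adjusted p = 0.0851). It was the only called one of 8 heart muscle markers, whose summed level was 25.1, 39.3 and 32.7 CPM in HT3 and 33.5, 53.7 and 42.0 CPM in NT3. ACTC1 is among the genes that the study picked from these samples. Whether heart tissue in the samples has a part in its value was not tested.

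Several loci changed by less than 2-fold. The 10 with the lowest p whose log2FC lay between -1 and 1 included NFE2L2, TIE1 and ETS1 (above). The locus of EMILIN1, KHK, CAD and ATRAID, whose 4 genes cannot be separated, measured 337, 315 and 323 CPM in HT3 and 544, 497 and 509.6 CPM in NT3, with a log2FC of -0.67 ± 0.09, adjusted p = 0.00259. ARHGAP18, a GTPase-activating protein for RhoA, measured 96.6, 89.9 and 82.8 CPM in HT3 and 145, 145 and 146 CPM in NT3, and the NT3 samples were almost identical (log2FC -0.69 ± 0.11, adjusted p = 0.00778). SOX13, a transcription factor, had a log2FC of -0.72 ± 0.11, adjusted p = 0.00786, TSPAN18, a tetraspanin, one of -0.73 ± 0.12, adjusted p = 0.0127, and EFNB1, an ephrin ligand, one of -0.89 ± 0.15, adjusted p = 0.0127. In the other direction, the death receptor TNFRSF21 measured 109.7, 101 and 121 CPM in HT3 and 61.5, 67.2 and 55.5 CPM in NT3 (log2FC 0.85 ± 0.14, adjusted p = 0.0127). The locus shared by NDUFV2, a subunit of respiratory complex I, and ANKRD12 rose 1.40-fold (log2FC 0.48 ± 0.08, adjusted p = 0.0159). It was the only called one of 38 loci of nuclear respiratory chain subunits, whose median was 0.12 (0.08 to 0.19 with 1 sample left out). All 10 stayed called with the block.

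Genes of cell division gave the lowest median of the 39 lists, but no single call in the shared fit. Without NT3 replicate 1, the median of lymphocyte markers was -0.91, lower than that of mitosis. 36 of 40 mitosis loci were below 0 with a median log2FC of -0.80, and 30 of the 40 were lower in HT3 without overlap, against 13.6% of all loci. UBE2C, a ubiquitin-conjugating enzyme of mitotic exit, measured 3.88, 3.56 and 4.20 CPM in HT3 and 10.6, 9.37 and 8.87 CPM in NT3 (log2FC -1.31 ± 0.42, adjusted p = 0.15). UBE2C passed in DESeq2's Wald test (adjusted p = 0.0341) and in edgeR's fit of the day 3 samples alone (adjusted p = 0.0215). CENPA, the centromeric histone, measured 1.31, 2.95 and 1.68 CPM in HT3 and 5.77, 4.91 and 7.30 CPM in NT3 (log2FC -1.59 ± 0.55, adjusted p = 0.181). The summed level of the list was 337, 402 and 344 CPM in HT3 and 533, 471 and 595 CPM in NT3. Removing 1 sample at a time put the median between -0.89 and -0.68. Of 32 loci of S phase and DNA replication, 26 were below 0 with a median of -0.35, none was called, and 10 were lower without overlap, against 13.6% of all loci. TK1 of that list passed in edgeR's fit of the day 3 samples alone (adjusted p = 0.0437) but not in DESeq2's Wald test (adjusted p = 0.126).

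**Figure D3:**
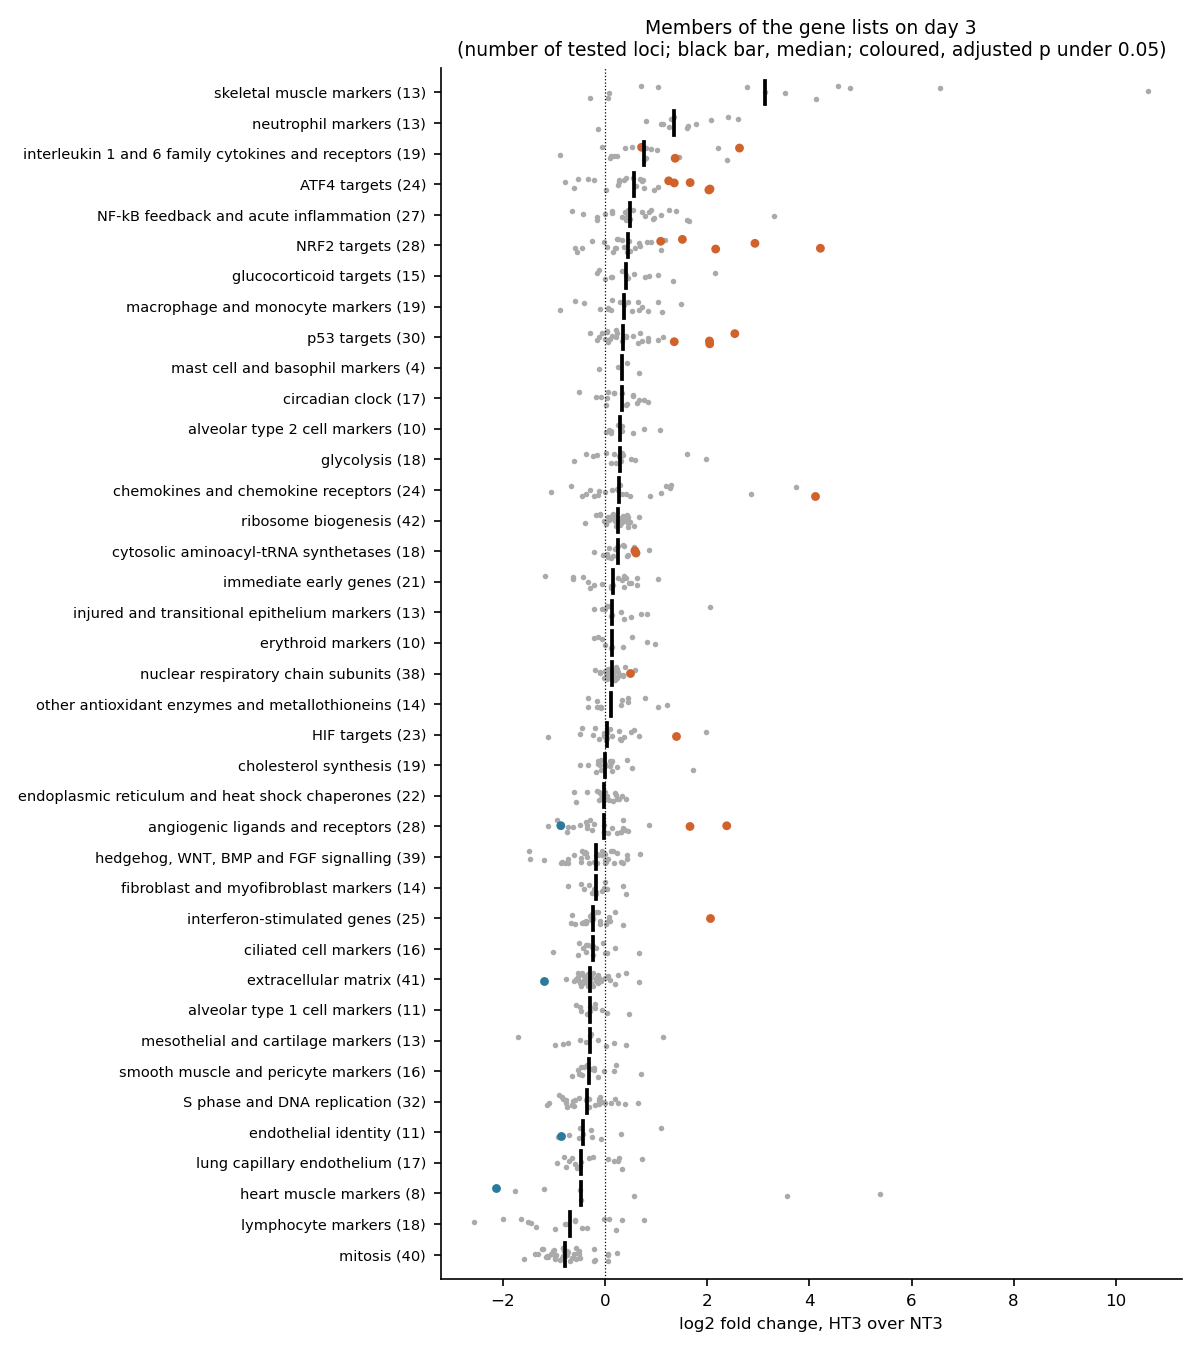
log2 fold change of HT3 over NT3 (x axis) for every tested locus of the 39 gene lists (rows, ordered by median, with the number of tested loci in brackets). Black bars are medians and coloured points the loci with an adjusted p under 0.05; mitosis has the lowest median at -0.80, and skeletal muscle the highest at 3.13, which falls to 0.92 without HT3 replicate 2.

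Other lists held few or no called loci. ISG20/AEN was the only one called of 25 interferon-stimulated loci, whose median was -0.24 but 0.03 without HT3 replicate 2. No locus was called among 18 of glycolysis (median 0.28, and 0.17 without HT3 replicate 3), 17 of the circadian clock (0.33, and 0.21 without NT3 replicate 2), 21 immediate early genes (0.14, and -0.23 without HT3 replicate 3) or 15 glucocorticoid targets (0.40, and 0.11 without HT3 replicate 2). The same held for 19 of cholesterol synthesis (median 0.00), 22 endoplasmic reticulum and heat shock chaperones (-0.01) and 39 of hedgehog, WNT, BMP and FGF signalling (-0.18, and -0.09 without NT3 replicate 2). With 1 sample left out, the median ran from -0.17 to 0.14 for cholesterol synthesis and from -0.06 to 0.08 for the chaperones. FKBP5, a chaperone induced by glucocorticoids, measured 146, 342 and 64.6 CPM in HT3 and 53.8, 37.99 and 33.0 CPM in NT3 (log2FC 2.15 ± 0.50, adjusted p = 0.056), and the glucose transporter SLC2A1 measured 18.5, 69.3 and 18.9 CPM in HT3 and 9.81, 9.87 and 7.49 CPM in NT3 (log2FC 1.97 ± 0.45, adjusted p = 0.0514). In both, HT3 replicate 2 was well above all other samples. Their log2FC without it were 1.34 for FKBP5 and 1.04 for SLC2A1.

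Among the cell type lists, no locus was called for alveolar type 2 cells (10 tested, median 0.29), alveolar type 1 cells (11, -0.29), injured epithelium (13, 0.13) or ciliated cells (16, -0.25). Nor was any for fibroblasts (14, -0.18), smooth muscle and pericytes (16, -0.32), lymphocytes (18, -0.68), mast cells (4, 0.33), erythroid cells (10, 0.13) or mesothelium and cartilage (13, -0.30). Several of these medians rested on 1 library. The median for injured epithelium was -0.09 without HT3 replicate 3 and 0.45 without HT3 replicate 2, and that for alveolar type 1 cells was -0.11 without HT3 replicate 3. With 1 sample left out, the medians ran from -0.10 to 0.49 for erythroid cells, from -0.05 to 0.53 for mast cells, from -0.41 to -0.19 for ciliated cells, from -0.28 to -0.12 for fibroblasts and from -0.49 to -0.17 for mesothelium and cartilage. The skeletal muscle list had a median of 3.13 over 13 loci with none called: its actin ACTA1 measured 2.63, 149 and 18.7 CPM in HT3 and 2.86, 2.51 and 1.82 CPM in NT3 (log2FC 4.56 ± 1.34, adjusted p = 0.121). HT3 replicate 2 was the highest sample for that gene by a wide margin, and HT3 replicate 3 was also above every NT3 sample.

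**Figure D4:**
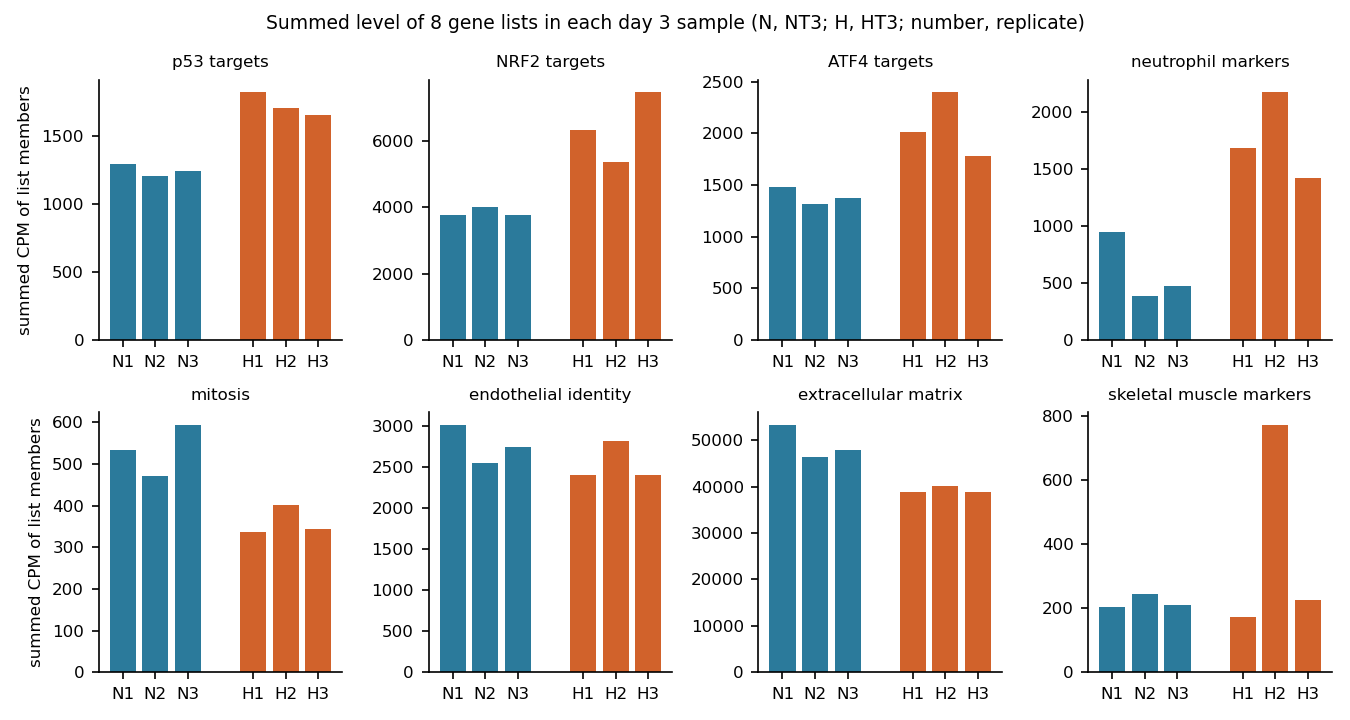
Summed CPM of 8 gene lists (y axis) in each day 3 sample, NT3 in blue and HT3 in orange (bars, 1 per sample). The sums of p53, NRF2 and ATF4 targets and of neutrophil markers are higher in every HT3 sample, those of mitosis and extracellular matrix are lower, those of endothelial identity overlap, and the skeletal muscle sum is highest in HT3 replicate 2.

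The study singled out 13 genes of interest over the 3 days. On day 3, EDA2R, CCL7 and IL1R2 were called among their 14 loci. Of those not called, ACE, the angiotensin-converting enzyme of capillaries, measured 1718, 2039 and 1417 CPM in HT3 and 2049.9, 2385 and 2708 CPM in NT3 (log2FC -0.47 ± 0.40, adjusted p = 0.623), and the matrix metalloproteinase MMP11 had a log2FC of -0.43 ± 0.40, adjusted p = 0.652. COL23A1, a transmembrane collagen, measured 112, 102 and 55.3 CPM in HT3 and 105, 96.3 and 70.0 CPM in NT3, and had overlapping groups (log2FC 0.00 ± 0.31, adjusted p = 0.996). PTGS2, the inducible cyclooxygenase, measured 12.5, 16.2 and 34.8 CPM in HT3 and 13.1, 20.6 and 24.1 CPM in NT3 (log2FC 0.14 ± 0.63, adjusted p = 0.946). The growth factor FGF1 had a log2FC of -0.35 ± 0.23, adjusted p = 0.501, and the locus shared by VEGFD and PIR one of -0.03 ± 0.26, adjusted p = 0.973. RPP25, a subunit of ribonuclease P, was at no more than 0.307 CPM in any day 3 sample.

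The loci called on day 3 were then followed on days 5 and 7, in other pups with their own controls. On day 5, 124 of the 126 had the same direction and 105 were called with it (83.3%), where 30.9% of all loci were called, 15.1% upward and 15.8% downward. On day 7, 118 had the same direction and 105 were called with it, where 47.2% of all loci were called, 23% upward and 24.3% downward. 2 loci, KCNE3 and LYVE1, were called in the opposite direction on day 7. When days 5 and 7 were fitted without the day 3 samples, 103 loci (81.7%) were called in the same direction on day 5 and 105 (83.3%) on day 7. That fit was added after seeing the data and kept the same 126 loci. These were chosen with a spread drawn from all 17 samples, so the samples of days 5 and 7 had a part in the choice.

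The effect on day 7 differed from that on day 3 for 53 of the 126 loci by a test of the difference itself, which passed for 19.7% of all loci. In 40 of the 53 the effect was farther from 0 on day 7. CDKN1A reached a log2FC of 5.50 ± 0.38, so that the difference from day 3 was 2.96 ± 0.46, adjusted p = 0.00144. EDA2R reached 4.83 ± 0.28 (difference 2.79 ± 0.36, adjusted p = 0.000546). TIE1 reached -2.27 ± 0.13 (difference -1.40 ± 0.17, adjusted p = 0.000443), and CYP26B1 -2.73 ± 0.18 (difference -1.52 ± 0.24, adjusted p = 0.00164). All 4 kept their direction. The effect on day 5 differed from that on day 3 for 9 loci, against 1.27% of all loci, and in 8 of the 9 it was farther from 0.

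In the remaining 13 of the 53 the effect was nearer to 0 or had turned. The log2FC of KCNJ2 was 0.71 ± 0.25 on day 5 and -0.04 ± 0.23 on day 7, and both differences from day 3 passed (day 5, -1.60 ± 0.35, adjusted p = 0.0424; day 7, -2.35 ± 0.32, adjusted p = 0.00075). NUPR1 had 0.58 ± 0.33 on day 7 (difference -1.46 ± 0.46, adjusted p = 0.0399), and LTK -0.40 ± 0.22 (difference 1.18 ± 0.32, adjusted p = 0.0186). The EMILIN1/KHK/CAD/ATRAID locus had -0.02 ± 0.09 (difference 0.65 ± 0.13, adjusted p = 0.00395). KCNE3, a potassium channel subunit outside the naming rule and chosen after its values were seen, measured 11.8, 12.03 and 7.88 CPM in HT3 and 5.65, 3.79 and 3.90 CPM in NT3 on day 3 (log2FC 1.25 ± 0.25, adjusted p = 0.0341) and had -1.36 ± 0.25 on day 7 (difference -2.61 ± 0.35, adjusted p = 0.000657). LYVE1, the hyaluronan receptor of lymphatic vessels, chosen likewise, measured 1869, 1758 and 1449 CPM in HT3 and 945, 666 and 1042 CPM in NT3 on day 3 (log2FC 0.94 ± 0.20, adjusted p = 0.044) and had -0.77 ± 0.20 on day 7 (difference -1.71 ± 0.29, adjusted p = 0.00196).

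**Figure D5:**
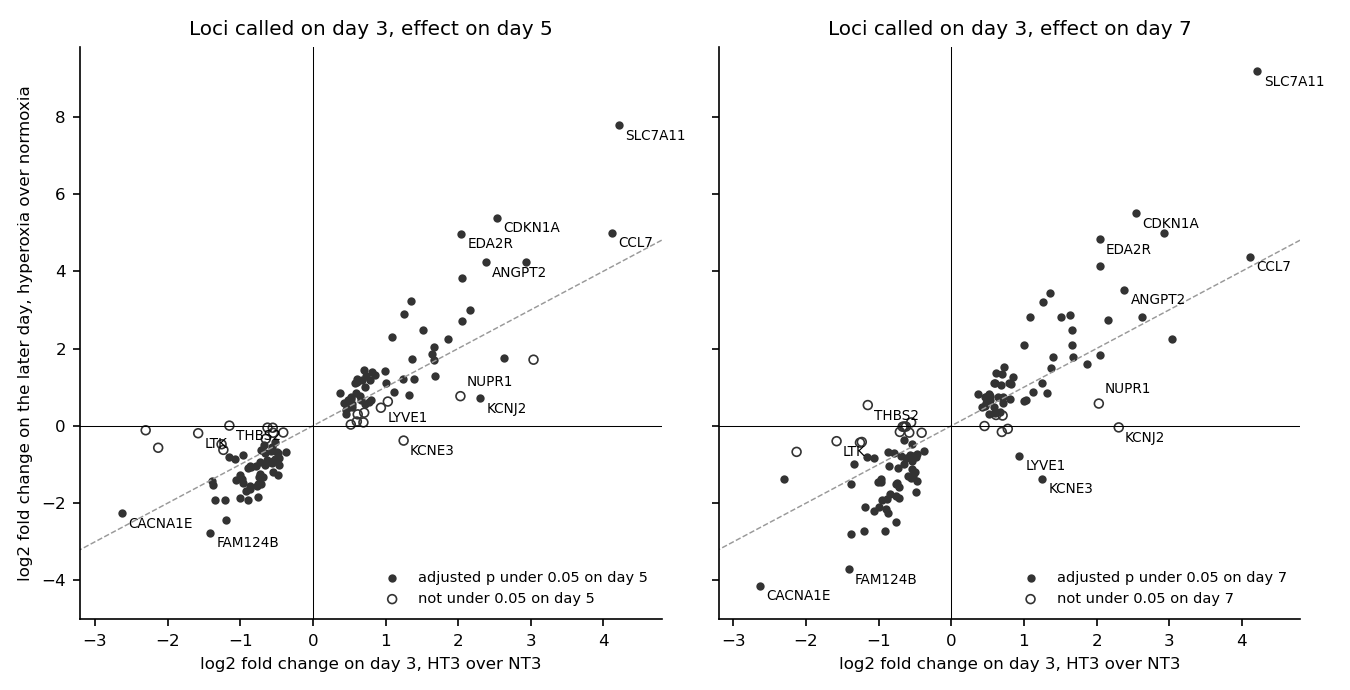
Effect of hyperoxia on day 5 (left) and day 7 (right) on the y axis against its effect on day 3 on the x axis, as log2 fold changes, for the 126 loci called on day 3 (points; filled, adjusted p under 0.05 on the later day). The dashed line marks equal effects; most loci keep their direction, while KCNJ2, NUPR1 and LTK lie near 0 on day 7 and KCNE3 and LYVE1 below it.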

How the data were processed

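Poly(A) RNA of 17 right lungs was sequenced by the authors as stranded paired-end libraries. The authors deposited raw counts per locus, without normalization. FastQC, STAR 2.7.10a and the build OryCun2.0 are named in the submitters' processing notes, and the counting program is not given in the sources used here. Positions are those of the table. The table has 13827 entries at 13313 loci, of which 434 carry several genes with the same counts, so 1 entry per locus was used and its genes cannot be separated.

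Tests used edgeR 4.0.16 under R 4.3.3. filterByExpr passed 12628 loci and removed 685. After TMM scaling, 1 quasi-likelihood fit held a mean for each of the 6 groups and drew the spread from all 17 samples. The contrasts were HT3 against NT3, the same on days 5 and 7, and the differences of the effects between days. The Benjamini-Hochberg adjustment ran over the 12628 loci of each contrast. Log2FC used a prior count of 0.125, and SE are the size of the log2FC divided by the square root of F. CPM use the TMM factors. The HT3 samples held between 15491976 and 17138343 counts and the NT3 samples between 16145393 and 18111086, with counting error only in these depths. Replicates of a group differed by more than sampling noise (chi-square of 15.8 to 41.7 per locus), so each counted as 1 sample. The PC1 scores were compared by an exact permutation test. Figures were made with matplotlib 3.10.9 and pandas 2.3.3 in Python 3.11.15, and the script was tested on simulated counts.

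The 39 gene lists, the naming rule and the tests were chosen with earlier results of these data known, and lists are described by counts and medians with no test. Named are loci past the study's thresholds, the 12 largest rises and 12 largest falls among called loci averaging 1 log2 CPM or more, without overlap of the groups, called list members, the member with the lowest p in each direction of a list without calls, the study's genes of interest and its day 3 genes, and the 10 called loci with the lowest p among those with a log2FC between -1 and 1. Other genes printed with values lie outside this rule and are listed as such. 12 of the 26 called list members were picked by the study from these samples.

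In samples with the same replicate number, the deviations from the group means correlated at 0.167, 0.129 and 0.201 for replicates 1, 2 and 3. All exceed 0.1, so the fit with the replicate number as a block is given where it ends a call. The pairing comes from the replicate numbers of the labels, which do not say what a number stands for. Correlations of other pairings are not given, and whether samples of 1 number share an effect was not tested. Alternatives were DESeq2 1.42.0, other size factors and filters, the day 3 samples alone, every table entry, other thresholds and leaving out each sample. Promoter motifs were not analysed here, and 1 named locus is not reported here.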

Additional observations from a re-analysis of the deposited data

Results flagged for a closer look

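Among the named loci reported here, at 40 the effect of hyperoxia (log2FC against normoxia of the same day) on day 5 or day 7 differed from that on day 3, by edgeR's test of the difference over all loci, in 50 differences. The values below are the later effect minus the day 3 effect on the log2 scale. With 2 or 3 samples a group, no test for a single outlying sample was run. Over all tested loci, this test passed for 1.27% on day 5 and 19.7% on day 7.

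On day 5, the difference was farther in the direction of day 3 for EDA2R (2.93), CDKN1A (2.84), ANGPT2 (1.84), ISG20/AEN (1.78) and SOX13 (-0.80), and back toward 0 for KCNJ2 (-1.60). It was also called at loci that were not called on day 3: MDM2 (1.97), MFAP4, a microfibril protein (-1.20), VEGFD/PIR (-1.73) and STC1, a secreted hormone (-1.85).

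On day 7, loci called upward on day 3 were farther up for SLC7A11 (4.97), CDKN1A (2.96), EDA2R (2.79), SESN2 (2.08), ISG20/AEN (2.08), SRXN1 (2.05), TXNRD1 (1.73), GCLM (1.30), ANGPT2 (1.14) and TARS1 (0.54). Loci called downward were farther down for FAM124B (-2.30), CYP26B1 (-1.52), PCDH12 (-1.43), TIE1 (-1.40), SOX13 (-1.15), EFNB1 (-1.01) and TSPAN18 (-0.85). The effect was nearer to 0 for KCNJ2 (-2.35), NUPR1 (-1.46), LTK (1.18) and EMILIN1/KHK/CAD/ATRAID (0.65).

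Among loci not called on day 3, the day 7 effect was higher for PTGS2 (5.02), MDM2 (1.91), the epithelial keratin KRT7 (1.64) and the transferrin receptor TFRC (1.19). It was lower for ACE (-3.29), COL23A1 (-2.84), NOS2, the inducible nitric oxide synthase (-2.54), FGF1 (-2.04), MMP11 (-1.99), VEGFD/PIR (-1.79), RGCC (-1.77), VEGFA (-1.71), STC1 (-1.56), CIART/C1orf54 (-1.49) and MFAP4 (-1.48). It was lower too for the ligand WNT2B (-1.33), TBX2 (-1.21), NR3C1, the glucocorticoid receptor (-1.06), and the clock gene RORA (-0.66). TBX2 is a transcription factor of lung mesenchyme that the lung capillary endothelium list also holds.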

How the results depend on the processing

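At 15491976 to 18111086 counts a sample, depth limits loci with few counts, such as SLC7A11 in NT3. No called locus among the 113 named changed direction under an alternative run for it, but 7 named loci that were not called took both signs when samples were left out, PTGS2 and COL23A1 among them. RLE or upper quartile factors, other count filters and use of every table entry gave between 114 and 136 called loci. Without 1 sample, the median of 26 of the 39 lists moved by over 1.5 times or changed sign, and that of 12 changed sign.

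Larger movements came from the test, the samples in the fit and the threshold. The day 3 samples alone gave 253 called loci (109 up, 144 down) and 54 called list members. DESeq2 gave 480 called loci, 18 past the study's thresholds and 68 list members, with 74.0% and 72.9% of its calls called alike on days 5 and 7. Without independent filtering these were 463, 17, 68, 74.5% and 73.0%. An adjusted p of 0.01 left 23 loci and one of 0.1 gave 342. The cause of these movements was not tested.

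Leaving out each sample gave 26 to 101 called loci, 1 to 6 past the study's thresholds and 7 to 24 called list members, and 70.3% to 93.1% of the calls were called alike on day 5 and 68.3% to 89.7% on day 7.

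With the replicate block, 56 loci and 13 of the 26 list members were called. Of the 113 named loci, 16 lost the call with the block and 97 kept their side of the threshold. DESeq2 added a call at 19 named loci, among them VCAM1, TBX2, CCL2, FKBP5 and SLC2A1, and took none away. The day 3 samples alone added a call at 11, among them VCAM1, TBX2, MDM2, SFTPA1 and UBE2C, and took away 5. Promoter motifs were not run.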

Other observations

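Further called loci outside the naming rule were chosen after their values were seen, and no list stands behind them. LAMP2, a lysosomal membrane protein, had a log2FC of 0.65 ± 0.13 (adjusted p = 0.03). FLCN and FNIP1, which form a complex, had 0.82 ± 0.17 and 0.79 ± 0.17. The subunit genes ATP6V0A1 and ATP6V1E1 of the vacuolar proton pump had 0.70 ± 0.15 and 0.48 ± 0.11, and its accessory gene ATP6AP2 0.46 ± 0.10. These 3 were the called ones of 19 tested loci with a symbol starting ATP6V or ATP6AP, whose median was 0.31, and 0.515% of all loci were called upward. All 6 lost the call with the replicate block (adjusted p between 0.0622 and 0.0841, edgeR).

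Other called loci chosen in the same way were GSTP1, a glutathione transferase (0.996 ± 0.20), and BLVRB, biliverdin reductase B (0.54 ± 0.12), both higher in HT3. Lower in HT3 were ELK3, a transcription factor (-0.55 ± 0.10), VASH1, an inhibitor of angiogenesis (-0.97 ± 0.21), PODXL, a sialomucin of vessel linings (-0.73 ± 0.16), ADGRA2, a receptor of brain vessel growth (-0.56 ± 0.11), and the forkhead factor FOXF2 (-0.90 ± 0.16). With the block, ELK3 and FOXF2 stayed called and the other 5 did not.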
